A study of Mus musculus with 2 samples.

Results

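Galectins, S100 proteins and annexin A2 were followed in colonic CD4 T cells of mice with transfer colitis, through 8 genes: Lgals1, Lgals3, Lgals9, S100a4, S100a6, S100a10, S100a11 and Anxa2. They were taken by name from a table of 11971 genes, and all 8 were present. The recipients were Rag-/- mice, whose own lymphocyte receptors cannot be assembled, and mice of both groups carried that deletion. KO-labelled mice (n = 6) had received BCL-6-deficient CD4 T cells, and WT-labelled mice (n = 6) had received CD4+ CD45RBhigh CD25- T cells, the naive cells that cause colitis on transfer. The labels give no Cre, promoter or deleted part of Bcl6, no age and no number of donors. TCRb+CD4+ cells were sorted from each colon, each mouse received its own hashtag antibody, and all were sequenced from the 5′ end in 1 pooled library.

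Galectins are lectins that bind galactose on cell surface glycans. Galectin-1 and galectin-9 (Lgals1, Lgals9) are known for binding glycoproteins on activated T cells and for promoting their death, and galectin-9 is a described ligand of the receptor TIM-3. Galectin-3 (Lgals3) can crosslink glycoproteins such as the T cell receptor and restrain its signalling. Most S100 proteins, though not all, are small calcium-binding dimers that act on target proteins. S100A4 binds nonmuscle myosin, S100A6 binds calcyclin binding protein, S100A11 binds annexin A1, and S100A10 joins annexin A2 (Anxa2) in a complex at the plasma membrane that links membranes to actin and binds plasminogen. All 8 genes are used by many cell types, among them macrophages and epithelium as well as activated T cells.

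The cells came from the authors' annotation, which names recirculating, cytotoxic, Th17, cycling and regulatory cells. It gives 2 further clusters only a general CD4 label, and these are called unnamed 1 and unnamed 3. The table held 18860 cells, 9708 from KO-labelled mice and 9152 from WT-labelled ones, with 1409 to 1736 cells and 4252124 to 5523025 UMIs (single RNA molecules counted once) per mouse. The median UMIs per cell of a mouse ran over 2381 to 2997 in the KO-labelled and 2864 to 3102.5 in the WT-labelled group. No barcode occurred more than once. Bcl6 stood at 65.8 to 91.3 CPM (UMIs of a gene per 1000000 UMIs of the same cells) in KO-labelled mice and 48.4 to 69.6 CPM in WT-labelled mice, a log2 fold change of 0.48 ± 0.10 (SE, edgeR adjusted p = 0.00398), so the targeted gene was not lower. The deleted part is not stated, so this count cannot check the labels, and directions refer to the labels. Defining markers matched the regulatory, Th17, cytotoxic and cycling names. Markers of recirculation were mixed in recirculating cells: the egress receptor S1pr1 was highest there of the 7 clusters, at 125 CPM beside 67.5 CPM in regulatory cells, whereas Klf2 (495 CPM) and the homing receptor Ccr7 (92.4 CPM) were below their levels in regulatory cells (929 and 718 CPM). The mix of clusters differed: unnamed 1 and unnamed 3 together made up 28.1% to 76.7% of the cells of a KO-labelled mouse and 12.7% to 19.4% of those of a WT-labelled mouse. For that reason each gene is given over all cells and within each cluster.

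In GRCm38 with the GENCODE M21 annotation, the S100 genes lie on chromosome 3, all on the plus strand. S100a4 spans 90603771 to 90606045, S100a6 spans 90612882 to 90624181, S100a11 spans 93520488 to 93526287 and S100a10 spans 93555080 to 93564643. Lgals1 is on chromosome 15 (78926725 to 78930465, plus strand), Lgals3 on chromosome 14 (47367751 to 47386160, plus strand) and Lgals9 on chromosome 11 (78962974 to 78984946, minus strand). Anxa2 is on chromosome 9 (69453620 to 69491795, plus strand). S100a4 overlaps the gene model Gm42674 on its own strand, and Anxa2 overlaps Mir3109 on its own and Gm16144 on the other strand. These genes and the processed copies S100a11-ps, Lgals1-ps1 and Lgals1-ps2 were not analysed here, so reads that S100a4, Anxa2, S100a11 and Lgals1 may share with them cannot be told apart.

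Promoters are printed for S100a11 and Anxa2, the members with a match to the AP-1 motif, and for Lgals3 and Lgals9, the members with the largest differences between genotypes over all cells. The sequences are RefSeq's for GRCm38.p6, from 250 bases before to 50 after the gene start, and 6 of the 8 members had one, the others being Lgals1 and S100a10. S100a11 is read from chr3:93520246-93520545 and Anxa2 from chr9:69453433-69453732, both plus strand. Lgals3 is read from chr14:47373610-47373909, plus strand, around a start inside the GENCODE gene, and Lgals9 from chr11:78984875-78985174, minus strand. Capitals mark TGANTCA, the motif bound by AP-1, a family of factors induced by T cell activation.
S100a11: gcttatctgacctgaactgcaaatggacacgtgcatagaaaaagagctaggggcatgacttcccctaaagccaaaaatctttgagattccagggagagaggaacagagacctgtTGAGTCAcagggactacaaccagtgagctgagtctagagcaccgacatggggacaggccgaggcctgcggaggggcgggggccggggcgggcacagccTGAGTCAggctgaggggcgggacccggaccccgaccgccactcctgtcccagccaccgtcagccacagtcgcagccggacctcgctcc
Anxa2: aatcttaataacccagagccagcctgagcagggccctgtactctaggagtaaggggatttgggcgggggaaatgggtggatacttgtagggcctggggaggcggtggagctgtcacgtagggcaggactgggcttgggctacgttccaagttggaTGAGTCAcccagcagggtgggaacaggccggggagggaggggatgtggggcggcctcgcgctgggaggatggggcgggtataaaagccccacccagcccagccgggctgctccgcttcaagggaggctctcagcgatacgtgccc
Lgals3: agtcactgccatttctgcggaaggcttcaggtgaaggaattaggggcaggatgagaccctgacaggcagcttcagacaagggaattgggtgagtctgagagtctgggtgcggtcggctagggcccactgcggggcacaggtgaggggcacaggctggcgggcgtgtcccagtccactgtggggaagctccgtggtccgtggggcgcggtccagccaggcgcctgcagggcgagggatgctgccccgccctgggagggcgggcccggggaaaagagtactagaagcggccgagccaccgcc
Lgals9: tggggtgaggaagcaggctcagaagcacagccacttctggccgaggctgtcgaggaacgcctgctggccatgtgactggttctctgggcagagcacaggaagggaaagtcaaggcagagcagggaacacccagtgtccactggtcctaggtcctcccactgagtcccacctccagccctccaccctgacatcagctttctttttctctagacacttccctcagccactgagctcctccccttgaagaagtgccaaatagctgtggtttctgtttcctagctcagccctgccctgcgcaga

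The S100a11 promoter held the AP-1 letters at 2 places, starting 136 and 38 bases before the gene start, and the Anxa2 promoter held them at 1 place, 95 bases before it. The promoters of Lgals3, Lgals9, S100a4 and S100a6 had no match. Over all 32851 promoters of the same length, 7.81% held the motif on either strand. The motif TTCNNNGAA, of the type bound by STAT factors and BCL6, was in none of the 6 promoters and in 8.30% of all, and CCACACCC, of the type bound by KLF factors, was in none of the 6 and in 3.56% of all. These are matches of letters and say nothing of binding.

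Over all CD4 cells, 4 of the 8 genes were higher and 1 was lower in KO-labelled mice. Lgals9 and Lgals3 rose most, S100a11 and Anxa2 rose less, and S100a4 fell. Lgals1, S100a6 and S100a10 did not pass the test. UMIs were summed per mouse and tested with edgeR's quasi-likelihood test over 9861 genes with Benjamini-Hochberg adjustment, and a gene was called at an adjusted p under 0.05. Of all genes tested, 7.04% were called higher and 7.21% lower. The median log2 fold change was 0.14 over the 8 genes and 0.00 over all genes tested. Together the 8 genes took 0.593% to 0.704% of the UMIs of KO-labelled mice and 0.539% to 0.599% of those of WT-labelled mice.

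Lgals9, the galectin with a pair of carbohydrate-binding domains in 1 chain, had a lowest, median and highest level of 132, 144 and 159 CPM in KO-labelled mice, against 73.1, 78.1 and 86.5 CPM in WT-labelled mice. Every KO-labelled mouse was above every WT-labelled mouse, and the mice within a group lay close together. The log2 fold change was 0.84 ± 0.06 (SE, n = 6 mice each, edgeR adjusted p = 6.05e-07).

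Lgals3, the galectin that self-associates through a long N-terminal tail, stood at 555, 619 and 690.5 CPM as lowest, median and highest in KO-labelled mice against 212, 313 and 470.5 CPM in WT-labelled mice. The groups again did not overlap, while WT-labelled mice varied more, with a mean of 620.2 ± 50.5 CPM in KO-labelled mice and 338 ± 96.0 CPM in WT-labelled mice (SD, n = 6 each). The log2 fold change was 0.84 ± 0.14 (SE, edgeR adjusted p = 0.00102). Among all genes tested, 4.41% were higher in KO-labelled mice with no overlap between the groups, and Lgals9, Lgals3 and S100a11 were the members among them.

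Lgals1 averaged 1749 ± 203 CPM in KO-labelled mice and 1745 ± 124 CPM in WT-labelled mice (SD, n = 6 each). KO-labelled mice ran from 1498.5 to 2055 CPM and enclosed the WT-labelled range of 1588 to 1916 CPM. Its log2 fold change of -0.04 ± 0.07 (edgeR adjusted p = 0.781) changed sign to 0.0031 with library sizes scaled by totals only and to 0.10 with all clusters weighted alike in all mice, so no direction is given for it over all cells.

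S100a11, the partner of annexin A1, had 899, 1011 and 1181 CPM as lowest, median and highest in KO-labelled mice, against 694, 741 and 785 CPM in WT-labelled mice. All KO-labelled mice exceeded all WT-labelled mice, at a log2 fold change of 0.42 ± 0.06 (SE, edgeR adjusted p = 0.000291). Anxa2 had 327, 351 and 374 CPM in KO-labelled mice, against 264, 279 and 338 CPM in WT-labelled mice. WT-labelled mouse 5, at 338 CPM, was the only mouse of its group within the KO-labelled range, and the log2 fold change was 0.25 ± 0.06 (SE, edgeR adjusted p = 0.0116).

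S100a10, whose protein annexin A2 binds and shields from degradation, averaged 1328 ± 150.3 CPM in KO-labelled mice and 1266 ± 59.6 CPM in WT-labelled mice, with overlapping groups and a log2 fold change of 0.03 ± 0.06 (edgeR adjusted p = 0.817). With all clusters weighted alike in all mice it was called higher, at 0.13 (adjusted p = 0.0429). Without KO-labelled mouse 4 or 6 its sign was negative, with a lowest value of -0.01 and adjusted p of at least 0.901. S100a6 averaged 874 ± 103 CPM in KO-labelled mice and 893 ± 46.9 CPM in WT-labelled mice, a log2 fold change of -0.07 ± 0.07 (adjusted p = 0.54) that became 0.06 with clusters of the same weight.

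S100a4, known for its role in cell motility, stood at 168, 236 and 408 CPM as lowest, median and highest in KO-labelled mice against 322, 371 and 423 CPM in WT-labelled mice. Of the KO-labelled mice, 5 lay below the whole WT-labelled group and mouse 6 lay inside it. The log2 fold change was -0.57 ± 0.15 (SE, edgeR adjusted p = 0.02). The call was lost with all clusters weighted alike in all mice (-0.20, adjusted p = 0.108) and without KO-labelled mice 1 and 2 (-0.39, adjusted p = 0.0862). Unnamed 1 and unnamed 3, the clusters with the lowest S100a4 levels, together made up 76.7% of the cells in KO-labelled mouse 2, which had the lowest S100a4, and 28.1% in KO-labelled mouse 6, which had the highest of its group. The other KO-labelled mice had 72.4%, 52.9%, 43.6% and 61.0% of cells in them (mice 1, 3, 4 and 5) with S100a4 at 215, 253, 284 and 219 CPM. Within single clusters the S100a4 log2 fold change ran from -0.76 in unnamed 3 to 0.16 in regulatory cells. The part of the cluster mix in the difference over all cells was not tested.

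**Figure D1:**
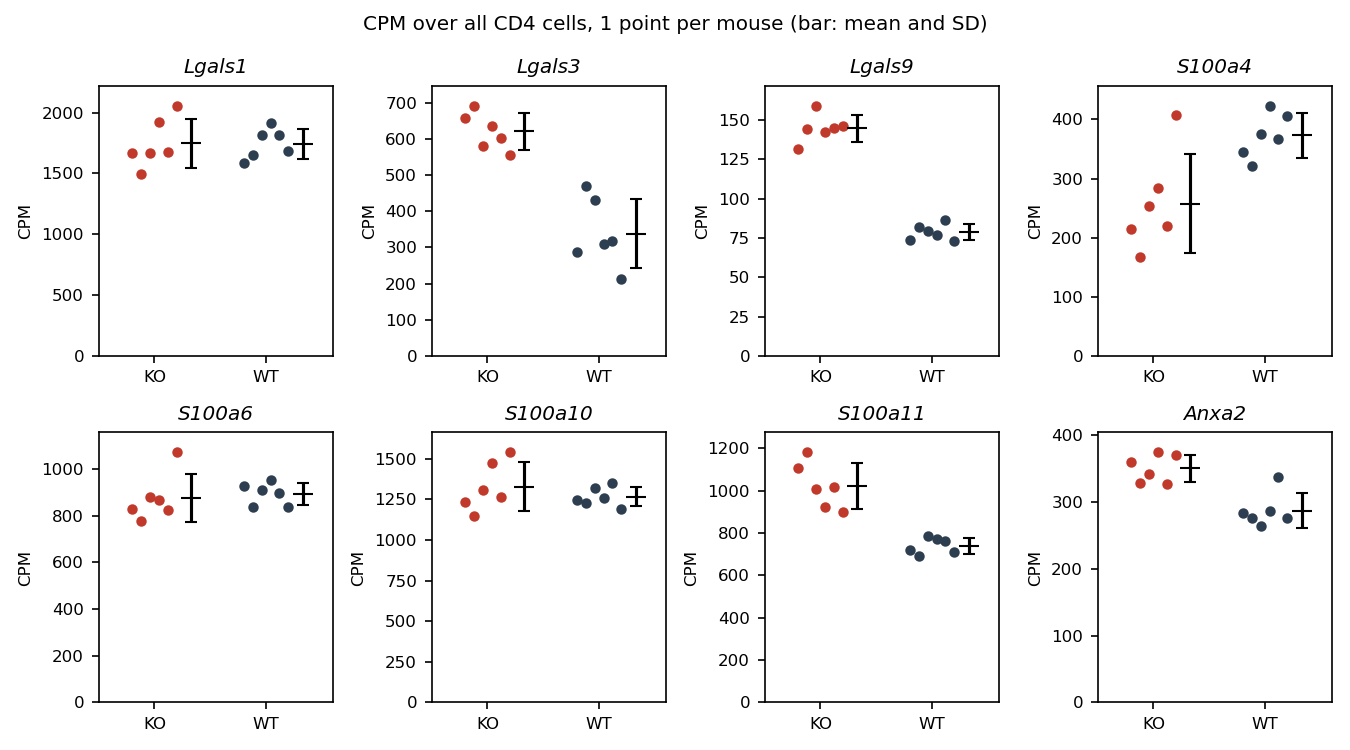
Level of each of the 8 genes over all CD4 cells in CPM, with 1 point per mouse in order of mouse number, KO-labelled mice at the left of each panel, and bars for the mean and SD of 6 mice. For Lgals3, Lgals9 and S100a11 no KO-labelled mouse lies within the WT-labelled range, and for S100a4 only KO-labelled mouse 6, at 408 CPM, does.

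Within clusters, Lgals9, Lgals3 and S100a11 were the members most often higher in KO-labelled mice, and the other members changed in 1 to 2 clusters each. The same test was fitted for each cluster on its own, over mice with at least 20 cells in it, which kept all 12 mice except in regulatory cells. In recirculating cells 5 members were called higher (2.17% of 7596 genes were) and none of the 8 lower (3.30% were). In unnamed 1 cells 4 were called higher, beside 1.75% of 5933 genes, while 2.90% were lower. In unnamed 3 cells 3 were higher (3.09% of 4242 genes were) and 2 lower (5.33% were). In cytotoxic cells 3 were higher, beside 1.32% of 6601 genes, while 1.58% were lower, and in Th17 cells 4 were higher, beside 2.52% of 5558 genes, while 2.57% were lower. In cycling cells 2 were higher (2.44% of 5376 genes were) and 2 lower (2.92% were).

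Lgals9 was called higher in all 6 clusters with 12 mice. Its log2 fold change ran from 0.47 ± 0.11 in unnamed 1 cells to 1.14 ± 0.14 in Th17 cells. In Th17 cells, which make interleukin 17 and interleukin 22, Lgals9 averaged 101 ± 14.1 CPM in KO-labelled mice and 43.9 ± 5.88 CPM in WT-labelled mice (SD, n = 6 each, edgeR adjusted p = 2.24e-05). In recirculating cells it averaged 149.6 ± 12.3 CPM in KO-labelled mice and 78.3 ± 6.20 CPM in WT-labelled mice (adjusted p = 3.07e-08). The genotypes did not overlap in any of the 6 clusters. Of all genes tested, those higher without overlap were 2.38% in recirculating, 1.58% in unnamed 1, 2.29% in unnamed 3, 1.71% in cytotoxic, 1.58% in Th17, 1.75% in cycling and 4.05% in regulatory cells. The weakest of these calls, in unnamed 1 cells (adjusted p = 0.0117), was lost without WT-labelled mouse 1 (adjusted p = 0.0532).

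Lgals3 was called higher in 5 clusters. In Th17 cells the lowest, median and highest mouse had 192, 360.4 and 543 CPM in the KO-labelled group, against 100.3, 126 and 147 CPM in the WT-labelled group, a log2 fold change of 1.50 ± 0.17 (SE, edgeR adjusted p = 8.00e-06). In unnamed 3 cells the values were 272, 339.9 and 386 CPM in KO-labelled mice and 83.8, 125 and 247 CPM in WT-labelled mice, a log2 fold change of 1.28 ± 0.16 (adjusted p = 5.35e-06). In both clusters all KO-labelled mice were above all WT-labelled mice. The fold change was 0.62 ± 0.12 in recirculating, 0.56 ± 0.13 in cytotoxic and 0.45 ± 0.10 in unnamed 1 cells on the log2 scale. Without KO-labelled mice 1 and 2 the call in cytotoxic cells was lost (adjusted p = 0.0972), and in cycling cells, where Lgals3 averaged 421 ± 65.6 CPM in KO-labelled mice and 303 ± 99.6 CPM in WT-labelled mice, it was not called (adjusted p = 0.168) unless WT-labelled mouse 3 was left out (0.0372).

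S100a11 was called higher in the same 6 clusters as Lgals9, with log2 fold changes in a narrow range from 0.35 ± 0.06 in recirculating to 0.48 ± 0.08 in Th17 cells. In Th17 cells it averaged 899 ± 61.9 CPM in KO-labelled mice and 633 ± 59.4 CPM in WT-labelled mice (SD, n = 6 each, edgeR adjusted p = 0.000336). In cytotoxic cells, the only one of these clusters where its groups overlapped, the means were 1080.0 ± 168 CPM in KO-labelled mice and 789 ± 63.7 CPM in WT-labelled mice. That call was lost without KO-labelled mice 1 and 2 (adjusted p = 0.0741).

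Anxa2 was called higher in recirculating and Th17 cells. In recirculating cells the lowest, median and highest mouse had 385, 434 and 521 CPM in the KO-labelled group, against 243, 307 and 319 CPM in the WT-labelled group, a log2 fold change of 0.54 ± 0.08 (SE, edgeR adjusted p = 3.15e-05). In Th17 cells they had 319, 398 and 509.6 CPM in KO-labelled mice and 193, 243 and 263 CPM in WT-labelled mice, a log2 fold change of 0.76 ± 0.11 (adjusted p = 0.000127). The groups were apart in both clusters. In cytotoxic cells Anxa2 averaged 309.97 ± 65.4 CPM in KO-labelled mice and 293 ± 43.0 CPM in WT-labelled mice, a log2 fold change of 0.01 ± 0.11 whose sign depended on the filter and on single mice.

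S100a10, the partner of annexin A2, was called higher in recirculating cells alone, with 1623, 1694 and 1785 CPM in KO-labelled mice and 1383, 1491 and 1497 CPM in WT-labelled mice as lowest, median and highest. The groups did not overlap, and the log2 fold change was 0.15 ± 0.04 (SE, edgeR adjusted p = 0.0277). The call was lost without KO-labelled mouse 4 or 6 or WT-labelled mouse 1 or 5 (adjusted p 0.0603 to 0.0826) and with no filter on low counts (0.0782). In cytotoxic cells it averaged 1483 ± 71.3 CPM in KO-labelled mice and 1244 ± 82.9 CPM in WT-labelled mice, with no overlap, and did not pass (log2 fold change 0.20 ± 0.06, adjusted p = 0.0699). It passed there with DESeq2 size factors, with totals only, in the DESeq2 test and without KO-labelled mice 1 and 2 (adjusted p 0.0456, 0.00615, 0.0212 and 0.0403). Leaving out KO-labelled mouse 1 or WT-labelled mouse 3 or 5 had the same effect (adjusted p 0.0283 to 0.0476).

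S100a4 and S100a6 fell in unnamed 3 cells. S100a4 averaged 75.9 ± 22.1 CPM in KO-labelled mice and 121 ± 37.8 CPM in WT-labelled mice there, a log2 fold change of -0.76 ± 0.19 (SE, n = 6 each, edgeR adjusted p = 0.00848) that did not pass without KO-labelled mice 1 and 2 (adjusted p = 0.106). S100a6 averaged 357 ± 67.1 CPM in KO-labelled mice and 479.6 ± 70.1 CPM in WT-labelled mice, a log2 fold change of -0.47 ± 0.11 (adjusted p = 0.00578). The genotypes overlapped for both genes. In the other clusters S100a6 was not called, with log2 fold changes from 0.03 in unnamed 1 to 0.21 in cytotoxic cells. The sign in unnamed 1 cells changed without KO-labelled mice 1 and 2 (-0.059).

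In cycling cells S100a4 and Lgals1 were lower. S100a4 averaged 330.1 ± 96.8 CPM in KO-labelled mice and 447 ± 38.1 CPM in WT-labelled mice (log2 fold change -0.47 ± 0.13, edgeR adjusted p = 0.0389). Lgals1 averaged 2399 ± 201 CPM in KO-labelled mice and 2665 ± 142 CPM in WT-labelled mice (-0.20 ± 0.05, adjusted p = 0.0273). Both calls were lost under several alternatives. Without KO-labelled mice 1 and 2 the adjusted p was 0.175 for S100a4 and 0.179 for Lgals1, and with totals only it was 0.0712 for S100a4 and 0.112 for Lgals1. The S100a4 call was kept only when KO-labelled mouse 6 or WT-labelled mouse 2 was the mouse left out, and the Lgals1 call was lost without KO-labelled mouse 1, 2 or 5 or WT-labelled mouse 1, 3 or 5 (adjusted p up to 0.106 for S100a4 and 0.0885 for Lgals1).

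In unnamed 1 cells Lgals1 was called higher, at 1511 ± 91.1 CPM in KO-labelled mice and 1231 ± 149.8 CPM in WT-labelled mice (log2 fold change 0.24 ± 0.07, edgeR adjusted p = 0.0462). Leaving out KO-labelled mouse 1, 2, 4, 5 or 6, or WT-labelled mouse 1, 2 or 3, ended that call (adjusted p 0.0515 to 0.145) as did leaving out KO-labelled mice 1 and 2 together (0.16). In regulatory cells, with 5 KO-labelled and 3 WT-labelled mice, none of the 8 genes passed in edgeR, 4 had an unadjusted p under 0.05, beside 11.3% of all genes tested, and none passed in DESeq2. At the adjusted threshold 0.513% of the 1754 genes tested there were called. S100a11 had 748 to 1519 CPM in KO-labelled mice and 617 to 713 CPM in WT-labelled mice in that cluster, and Anxa2 245 to 425 CPM in KO-labelled mice and 140.2 to 241 CPM in WT-labelled mice, with no overlap for either. Of all genes tested there, 4.05% were higher without overlap. Lgals3 (log2 fold change 1.15 ± 0.40, edgeR adjusted p = 0.306) and S100a10 (0.44 ± 0.14, adjusted p = 0.251) also had an unadjusted p under 0.05, and their groups overlapped.

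**Figure D2:**
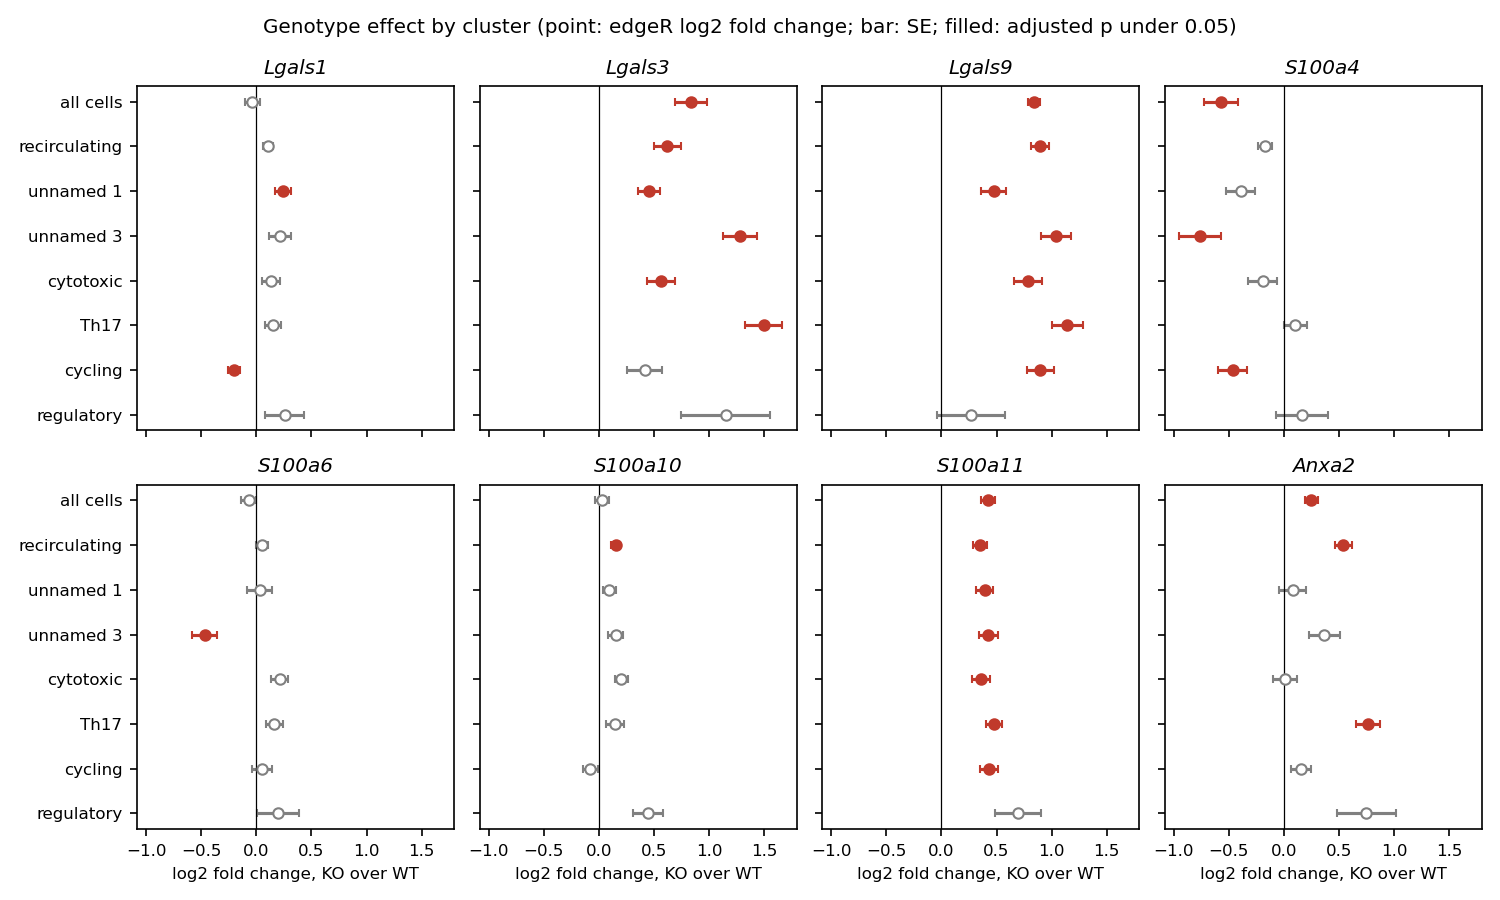
Log2 fold change of KO-labelled over WT-labelled mice (x axis) for the 8 genes over all cells and in each cluster (y axis), with bars for the SE and filled points at an edgeR adjusted p under 0.05. Lgals9 and S100a11 are filled in every row but regulatory cells, Lgals3 reaches 1.50 in Th17 cells, and S100a4 is at the left of 0 in 5 of the 7 clusters.

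Whether the genotype effect of a gene differed between clusters was tested with limma on the difference between each of 5 clusters and recirculating cells within the same mouse. None of the 8 genes passed the adjusted threshold in any of the 5 tests, in which 0% to 0.0708% of all genes were called. At an unadjusted p under 0.05 there was 1 of the 8 members for cytotoxic cells, beside 545 of 6549 genes tested. For Th17 cells there was also 1 member, beside 492 of 5528 genes. Unnamed 1 and unnamed 3 cells had 2 members each, beside 458 of 5908 and 394 of 4237 genes. Cycling cells had 4 members, beside 512 of 5175 genes. These counts are not read as a result about the members. The Lgals3 effect was larger by 0.72 ± 0.21 in Th17 than in recirculating cells (SE, log2 scale, limma adjusted p = 0.373), and the Anxa2 effect was smaller by the difference -0.55 ± 0.18 in cytotoxic cells (adjusted p = 0.508).

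Allowing the variance to follow the level of a gene, an alternative chosen after seeing the data, moved 3 of these differences past the threshold. Under it 0.684% of all genes tested were called in the difference for unnamed 3 cells and 0.734% in that for cycling cells. In unnamed 3 cells the S100a6 effect then differed from that in recirculating cells by -0.56 (limma adjusted p = 0.0146) and the Lgals3 effect by 0.59 (0.0325). In cycling cells the Lgals1 effect differed by -0.31 (adjusted p = 0.0131). Without the variance trend none of these 3 differences passed. Effects called in 1 cluster and not in another are therefore not shown to differ.

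The clusters were built by the authors from these cells, so levels between clusters are a description. Lgals1 was lowest in unnamed 3 cells, at 779 ± 125 CPM in KO-labelled mice and 646 ± 104 CPM in WT-labelled mice, and every mouse was below every mouse of the next cluster, unnamed 1. It was highest in WT-labelled mice in cycling cells (2665 ± 142 CPM), apart from recirculating cells at 2138 ± 146 CPM. In KO-labelled mice regulatory, recirculating and cycling cells (2562 ± 773, 2402 ± 68.1 and 2399 ± 201 CPM) could not be ordered beyond their spread.

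Lgals3 was highest in unnamed 1 cells, at 930.5 ± 66.6 CPM in KO-labelled mice and 649 ± 147 CPM in WT-labelled mice, and lowest in regulatory cells, at 173 ± 69.3 CPM in KO-labelled mice and 72.2 ± 26.1 CPM in WT-labelled mice. Only in KO-labelled mice did unnamed 1 stand above the next cluster without overlap. Lgals9 was lowest in Th17 cells in both genotypes, below every mouse of the next cluster, and the 6 other clusters overlapped their neighbours, from 138 ± 11.2 to 186 ± 57.3 CPM in KO-labelled mice and from 70.0 ± 11.4 to 135 ± 64.7 CPM in WT-labelled mice.

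S100a6 and S100a10 were highest in regulatory cells, the Foxp3-expressing suppressors, above every mouse of the next cluster in both genotypes. S100a6 averaged 2544 ± 595 CPM there in KO-labelled (n = 5) and 2185 ± 616 CPM in WT-labelled mice (n = 3), and S100a10 averaged 2507 ± 399.9 CPM in KO-labelled mice and 1811 ± 138 CPM in WT-labelled mice. Recirculating cells came next for both. For S100a10 in WT-labelled mice they overlapped cycling cells, at 1465 ± 47.1 and 1458 ± 118 CPM. Both genes were lowest in unnamed 3 cells.

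S100a4 was highest in Th17 cells, at 526 ± 102 CPM in KO-labelled mice and 489.8 ± 53.7 CPM in WT-labelled mice, with overlap with the next cluster. It was lowest in unnamed 3 cells, at the levels given above. Anxa2 was highest in cycling cells, at 499 ± 63.0 CPM in KO-labelled mice and 432 ± 51.2 CPM in WT-labelled mice, again overlapping the next cluster, and lowest in unnamed 3 cells, at 162 ± 16.6 CPM in KO-labelled mice and 117 ± 32.9 CPM in WT-labelled mice. Recirculating cells ranked 2 of 7 for Anxa2 in KO-labelled mice and 4 of 7 in WT-labelled mice. S100a11 had the flattest profile, from 885 ± 128 to 1087 ± 308 CPM over clusters in KO-labelled mice and from 632 ± 50.8 to 798 ± 58.5 CPM in WT-labelled mice, and no cluster stood apart from its neighbour in either genotype.

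**Figure D3:**
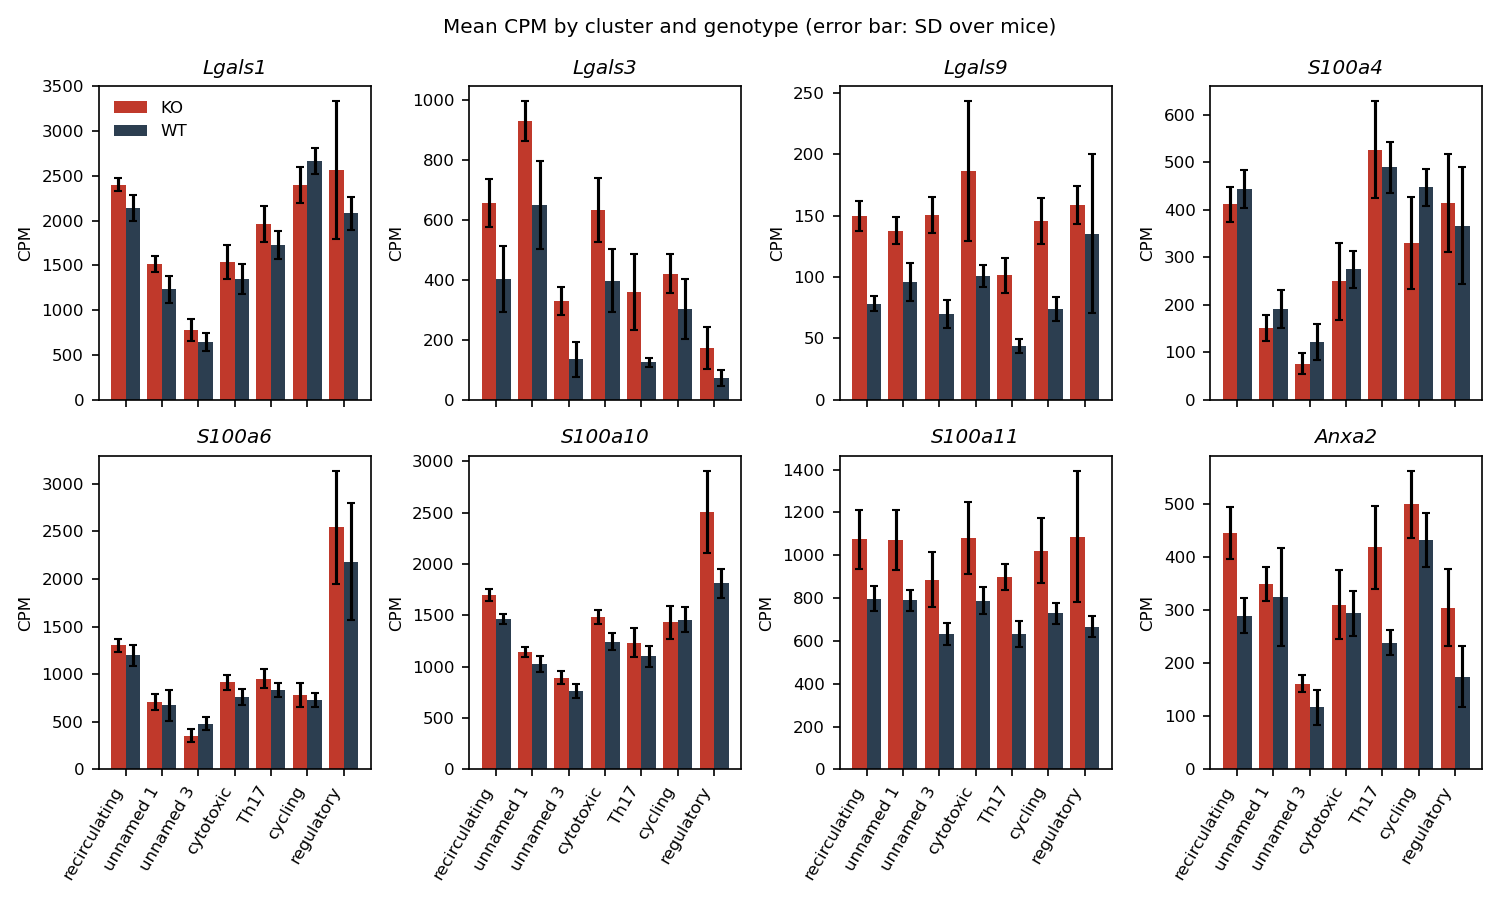
Mean level in CPM (y axis from 0) of the 8 genes in each cluster (x axis), with KO-labelled mice as left and WT-labelled mice as right bars and error bars for the SD over 6 mice (5 KO-labelled and 3 WT-labelled for regulatory cells). S100a6 and S100a10 peak in regulatory cells, Lgals3 in unnamed 1 cells at 930.5 CPM in KO-labelled mice, and unnamed 3 is the lowest cluster for Lgals1, S100a4, S100a6, S100a10 and Anxa2.

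The 8 profiles fell into different shapes. Over the 14 means of cluster and genotype, which share mice and libraries, Pearson's r of mean log2 CPM was 0.91 between S100a6 and S100a10, 0.87 between Lgals1 and S100a4, 0.83 between Lgals1 and S100a10 and 0.82 between Lgals9 and S100a11. It was 0.45 between S100a10 and Anxa2, and -0.31 between Lgals3 and S100a6. These values are descriptions with no test.

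The genes with the most similar profile were searched among 2080 genes whose mean log2 CPM was 6 or more, again over 14 means. They were Actb, a cytoplasmic actin, and Ndufs8 for Lgals1 (r = 0.96 and 0.95), Cd69, an early activation marker, and Sept1 for Lgals3 (0.88 and 0.87), and Atxn10 and Grap for Lgals9 (0.87 and 0.86). S100a4 was closest to Flna, the actin crosslinker filamin A, and Arf5 (0.94 and 0.91), S100a6 to Tmem173, which encodes STING, and Pkp3 (0.95 and 0.93), and S100a10 to Lamtor5 and Actg1 (0.95 and 0.93). S100a11 was closest to Plac8 and Puf60 (0.91 and 0.85), and Anxa2 to Actr2, a subunit of the Arp2/3 actin nucleator (0.93). In single cells of the recirculating cluster, the median Spearman rho over 12 mice was 0.30 between Lgals1 and S100a10 and 0.27 between Lgals1 and Anxa2, against 0.0036 between Lgals1 and Lgals9, at sparse counts.

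The share of cells with at least 1 UMI was compared after each cell was thinned to 1500 UMIs. Shallower cells, 491 of KO-labelled mice and 407 of WT-labelled mice, were left out. Lgals3 was detected in 42.9% ± 2.91 of cells of KO-labelled mice and 27.6% ± 5.54 of those of WT-labelled mice, and Lgals9 in 18.7% ± 1.11 of cells of KO-labelled mice and 10.9% ± 0.609 of those of WT-labelled mice (SD, n = 6 mice each). S100a11 was detected in 71.1% ± 2.71 of cells of KO-labelled mice and 61.4% ± 0.611 of those of WT-labelled mice, and Anxa2 in 32.5% ± 1.86 of cells of KO-labelled mice and 27.0% ± 1.79 of those of WT-labelled mice. For these 4 genes the two-sided exact permutation test over mice gave p = 0.00216, the smallest it can give. The p-values of these 8 tests are unadjusted.

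S100a4 was detected in fewer cells, 23.2% ± 6.36 in KO-labelled mice and 33.5% ± 3.03 in WT-labelled mice (SD, n = 6 each, exact permutation p = 0.00866). Lgals1 was detected in 76.8% ± 2.19 of cells of KO-labelled mice and 72.9% ± 2.87 of those of WT-labelled mice (exact p = 0.0325). It no longer passed 0.05 at 500 UMIs (exact p = 0.0671), without thinning (0.0779) or without KO-labelled mouse 4 or 6 or WT-labelled mouse 1, 2, 3 or 6 (0.0519 to 0.0649). S100a6 was at 49.8% ± 3.79 in KO-labelled mice and 51.7% ± 1.56 in WT-labelled mice (exact p = 0.31), and at an exact p of 0.026 without KO-labelled mouse 6. S100a10 was at 77.5% ± 3.59 in KO-labelled mice and 76.3% ± 1.72 in WT-labelled mice (exact p = 0.504). These shares are over all clusters, whose mix differed between genotypes, and the part of the mix in them was not tested. For S100a4 the shares in KO-labelled and WT-labelled mice were 38.4% and 39.3% in recirculating cells and 8.76% and 13.3% in unnamed 3 cells. In Th17 cells, the only cluster with a higher mean S100a4 share in KO-labelled mice, they were 46.9% and 43.1%.

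Without thinning the shares were 55.2% in KO-labelled mice and 38.4% in WT-labelled mice for Lgals3, and 31.2% in KO-labelled mice and 21.0% in WT-labelled mice for Lgals9. No cell type of the sort is known to lack these genes, so no background share can be given. The lowest share of Lgals3 in any cluster was 13.5% in KO-labelled mice and 5.13% in WT-labelled mice, in regulatory cells, and its highest was 56.1% in KO-labelled mice and 44.9% in WT-labelled mice, in unnamed 1 cells.

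T cells that share a receptor descend from 1 cell. Within a mouse, cells of clones with at least 3 cells (expanded) were compared with cells whose receptor was seen once (single), with the mouse as a block. In recirculating cells of 12 mice, 6 of the 8 genes were higher in expanded clones and none of the 8 was called lower, beside 1.50% of 4335 genes called higher and 2.42% lower. The median log2 fold change was 0.26 over the 8 genes and -0.01 over all genes tested.

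Lgals1 averaged 2499 ± 255 CPM in expanded clones and 2028 ± 279 CPM in single cells (SD, n = 12 mice), higher in 11 of 12 mice, with a log2 fold change of 0.29 ± 0.04 (SE, edgeR adjusted p = 2.50e-05). S100a4 averaged 481 ± 53.7 CPM in expanded clones and 351 ± 89.9 CPM in single cells, higher in 11 of 12 mice, at 0.41 ± 0.08 (adjusted p = 0.00132). The exception was KO-labelled mouse 1 for Lgals1 and KO-labelled mouse 3 for S100a4. KO-labelled mouse 1 also had lower Lgals3, S100a6, S100a10 and Anxa2 in expanded clones (log2 ratios -0.61, -0.14, -0.17 and -0.21), and higher S100a4 (0.25).

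Lgals3 averaged 582 ± 168 CPM in expanded clones and 447 ± 195 CPM in single cells, higher in 10 of 12 mice, with a log2 fold change of 0.42 ± 0.08 (edgeR adjusted p = 0.000332). The UMIs of both genes of the annexin A2 complex were higher. Anxa2 averaged 419 ± 101 CPM in expanded clones and 338 ± 122 CPM in single cells, higher in 11 of 12 mice (0.35 ± 0.06, adjusted p = 0.000415). S100a10 averaged 1696 ± 152 CPM in expanded clones and 1431 ± 151 CPM in single cells, higher in 11 of 12 mice (0.23 ± 0.04, adjusted p = 0.000118).

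S100a6 averaged 1345 ± 168 CPM in expanded clones and 1148 ± 163 CPM in single cells, higher in 10 of 12 mice (log2 fold change 0.21 ± 0.05, edgeR adjusted p = 0.00623). Lgals9, at 115 ± 37.6 CPM in expanded clones and 125 ± 46.4 CPM in single cells, was higher in 4 of 12 mice and did not pass (-0.15 ± 0.10, adjusted p = 0.517). S100a11, at 958 ± 176 CPM in expanded clones and 914 ± 243 CPM in single cells, did not pass either (0.08 ± 0.05, adjusted p = 0.515). Fitted in WT-labelled mice alone, S100a4 and S100a6 no longer passed (adjusted p = 0.0506 and 0.249), and in KO-labelled mice alone Anxa2 did not (adjusted p = 0.0860).

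In cytotoxic cells, where 4 KO-labelled and 6 WT-labelled mice had at least 20 cells of each kind, Lgals1 and Anxa2 were called higher in expanded clones, beside 1.00% of 3000 genes called higher and 1.33% lower. Lgals1 averaged 1540.1 ± 204 CPM in expanded clones and 1104 ± 284 CPM in single cells, higher in 9 of 10 mice, with a log2 fold change of 0.46 ± 0.07 (SE, edgeR adjusted p = 0.000101). Anxa2 averaged 314 ± 41.3 CPM in expanded clones and 245 ± 72.9 CPM in single cells, higher in 9 of 10 mice, at 0.41 ± 0.10 (adjusted p = 0.0254). The Anxa2 call was lost without WT-labelled mouse 3, 5 or 6 (adjusted p 0.0571 to 0.0957), and in the 4 KO-labelled mice alone neither gene passed (adjusted p = 0.372 for Lgals1 and 0.933 for Anxa2). Lgals3 was at 525 ± 171 CPM in expanded clones and 378 ± 145 CPM in single cells (adjusted p = 0.0839), and passed without WT-labelled mouse 1 (0.00948). S100a4 was at 288 ± 47.0 CPM in expanded clones and 215 ± 74.3 CPM in single cells (adjusted p = 0.16), and passed without WT-labelled mouse 2 (0.0199).

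**Figure D4:**
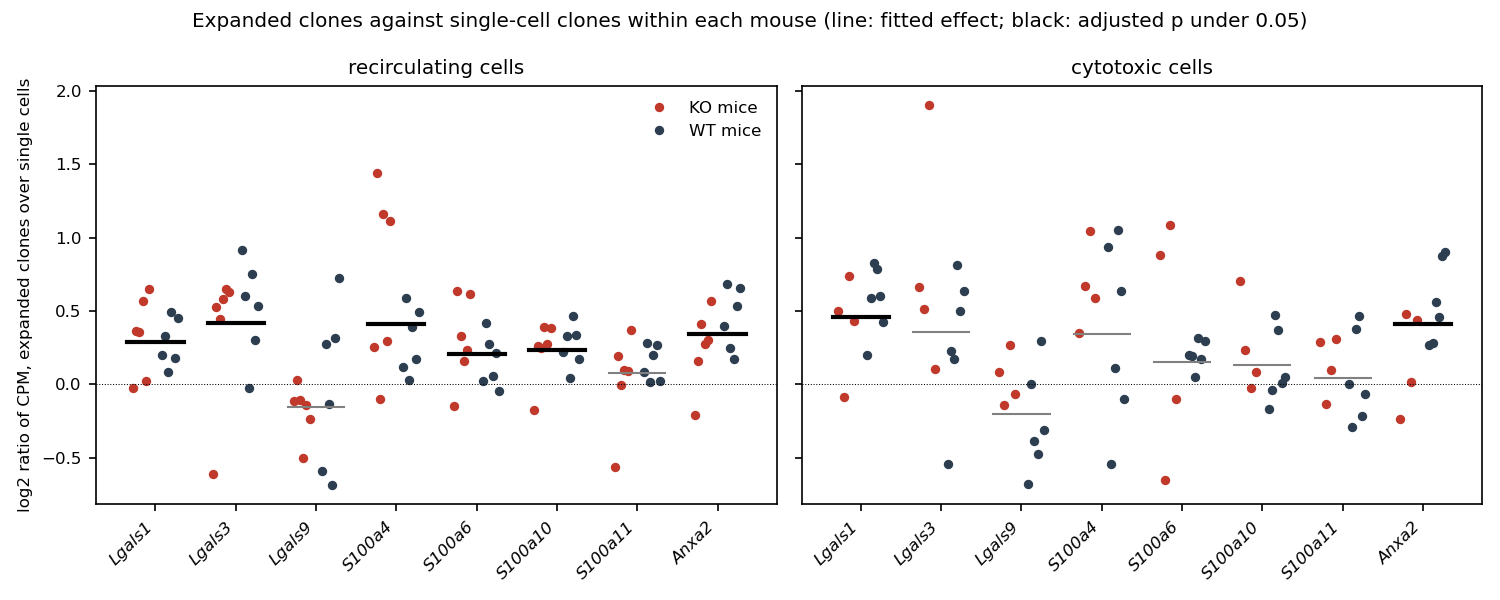
Log2 ratio of CPM in expanded clones over single cells within each mouse (y axis) for the 8 genes (x axis), in recirculating cells at the left and cytotoxic cells at the right, with KO-labelled mice left of WT-labelled mice for each gene. Lines give the fitted effect and are black at an edgeR adjusted p under 0.05. In recirculating cells Lgals1, S100a4, S100a10 and Anxa2 lie above 0 in 11 of 12 mice, and Lgals9 in 4.

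Genes that work with the members were taken from 7 fixed lists and read from the test over all cells. In that test 7.04% of all genes were called higher and 7.21% lower. Of 6 other annexins tested, 2 were called higher and none lower: Anxa6, at 414 ± 15.1 CPM in KO-labelled mice and 345 ± 15.7 CPM in WT-labelled mice (log2 fold change 0.22 ± 0.04, edgeR adjusted p = 0.00332), and Anxa1, the partner of S100A11, at 26.7 ± 8.01 CPM in KO-labelled mice and 16.5 ± 1.87 CPM in WT-labelled mice (0.66 ± 0.16, adjusted p = 0.0125). Anxa11 was at 83.0 ± 5.89 CPM in KO-labelled mice and 84.9 ± 4.84 CPM in WT-labelled mice. Of the other S100 genes, S100a1 and S100a13 were tested and did not pass (adjusted p = 0.0959 and 0.812). Of 4 other galectin genes tested, Lgals7 was called higher, at 18.7 ± 4.70 CPM in KO-labelled mice and 8.65 ± 2.39 CPM in WT-labelled mice (adjusted p = 0.00129), and Lgalsl lower, at 11.8 ± 0.894 CPM in KO-labelled mice and 15.4 ± 1.69 CPM in WT-labelled mice (adjusted p = 0.00942). Lgals8 did not pass (adjusted p = 0.111).

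Of 13 surface glycoproteins described as partners of galectins on T cells, 2 were higher and 5 lower in KO-labelled mice. Of all genes tested, 7.04% were called higher and 7.21% lower. Cd7, a galectin-1 receptor, stood at 62.5 ± 23.5 CPM in KO-labelled mice and 288 ± 54.9 CPM in WT-labelled mice (log2 fold change -2.24 ± 0.20, edgeR adjusted p = 4.77e-06). The inhibitory receptor Lag3 was also lower, at 10.4 ± 4.06 CPM in KO-labelled mice and 29.2 ± 11.4 CPM in WT-labelled mice (adjusted p = 0.00135). Cd44, the hyaluronan receptor, was higher, at 303 ± 70.4 CPM in KO-labelled mice and 190.2 ± 8.82 CPM in WT-labelled mice (0.63 ± 0.12, adjusted p = 0.00179).

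Of 10 tested enzymes that build the branched or capped glycans galectins bind, 3 were higher and 2 lower. Mgat4a and Mgat5, which add N-glycan branches, rose by 0.81 ± 0.13 and 0.44 ± 0.10 on the log2 scale (edgeR adjusted p = 0.000498 and 0.00823). St3gal1, which caps O-glycans with sialic acid, fell by 0.46 ± 0.11 (adjusted p = 0.0101). Of 5 tested partners of annexin A2, S100A10 and the plasminogen system, 2 were higher, Cd44 and the kinase Src, the second at 8.95 ± 5.16 CPM in KO-labelled mice and 3.56 ± 1.14 CPM in WT-labelled mice (adjusted p = 0.0228). Ahnak, a large scaffold bound by S100A10, was at 624 ± 158 CPM in KO-labelled mice and 459 ± 47.2 CPM in WT-labelled mice and did not pass (adjusted p = 0.0562). Of 12 cytoskeletal partners of S100 proteins, 2 were higher and 1 lower: Capg, an actin filament capper, at 441 ± 58.7 CPM in KO-labelled mice and 245 ± 42.0 CPM in WT-labelled mice (0.80 ± 0.10, adjusted p = 0.0001), Tagln2 (0.37 ± 0.08, adjusted p = 0.00364), and the tropomyosin gene Tpm4 (-0.33 ± 0.06, adjusted p = 0.00137).

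Median log2 fold changes of these lists lay between -0.09 for the galectin partners and 0.40 for the annexin A2 partners, against 0.00 over all genes. In recirculating cells, where the mix of clusters plays no part, the galectin partners had 2 called higher and 2 lower of 11 tested, and the cytoskeletal partners 3 higher and 1 lower of 12. Of all 7596 genes tested there, 2.17% were called higher and 3.30% lower.

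Because epithelium and macrophages use the same 8 genes, markers of other cell types are given beside the galectin and S100 results. The summed level of 7 epithelial markers was 8.22 to 14.2 CPM in KO-labelled mice and 11.996 to 26.7 CPM in WT-labelled mice. Krt18 was its largest single part, with 107 UMIs in KO-labelled mice and 409 in WT-labelled mice, and 35.3 CPM in Th17 cells. Without Krt18 the other 6 summed to 250 UMIs in KO-labelled mice and 178 in WT-labelled mice, and 4 of them, Epcam among them (98 UMIs in KO-labelled mice and 43 in WT-labelled mice), had more UMIs in KO-labelled mice. Epcam stood at 35.1 CPM in regulatory cells and at 0.797 to 3.76 CPM in the other clusters. The summed level of 5 myeloid markers was 6.40 to 10.3 CPM in KO-labelled mice and 8.28 to 14.9 CPM in WT-labelled mice. Of these, Lyz2, Cd68 and Cd14 had fewer UMIs in KO-labelled mice (101, 87 and 13) than in WT-labelled mice (162, 124 and 23). Csf1r, which defines macrophages, had 12 UMIs in KO-labelled mice and 10 in WT-labelled mice. C1qa had 15 UMIs in KO-labelled mice and 9 in WT-labelled mice. Adgre1, Itgam, S100a8, S100a9 and the 5 fibroblast and 3 mast cell markers chosen were not analysed here. The B and plasma cell markers Cd79b and Igkc summed to 1.65 to 10.2 CPM in KO-labelled mice and 13.04 to 27.3 CPM in WT-labelled mice. The median share of mitochondrial UMIs in a mouse was 0.81% to 0.83% in KO-labelled mice and 0.85% to 0.935% in WT-labelled mice. The part of these levels in the differences of Lgals3, Lgals9 and S100a11 was not tested.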

How the data were processed

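The builds GRCm38 and mm10 are named in the submitters' processing notes, as are the tools Seurat 3.1.5 and Cell Ranger 3.1.0. The counting annotation and strand setting are not given in the sources used here. The deposited table holds unnormalized UMI counts of 11971 genes for 18860 cells, and the deposited annotation names the mouse, genotype, cluster and clonotype of each cell. It also holds the authors' percent of UMIs from mitochondria and their doublet score per cell (highest 0.354), and no doublets were called here. The UMI sum of every cell equalled its deposited count, no row lacked a gene name, and the genotype matched the hashtag table in all 18860 cells. The 2 GEO samples are the hashtag and expression libraries of 1 pool, so groups and mice come from the annotation.

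For each mouse, UMIs were summed over all its cells and over those of each cluster. The sums of genes passing filterByExpr were fitted with edgeR 4.0.16 under R 4.3.3 by the two-sided quasi-likelihood F test with TMM scaling, at an adjusted p under 0.05. Mice with fewer than 20 cells in a cluster were left out of it. CPM values are UMIs of a gene per 1000000 UMIs of the same cells, and SEs are the log2 fold change divided by the square root of F. Differences between clusters were fitted with limma 3.58.1 on log2 CPM (prior count 2). Expanded clones had at least 3 cells in the mouse and single clones 1. Both sums came from the same mouse, which entered as a block. Shares of cells used an exact permutation test over the 924 assignments of 12 mice. The design adjusted these p-values over the 8 members. They are given unadjusted, since the members were chosen with results known. Depth limits low genes: Lgals9 had 6373 UMIs in all. Nothing states that the donors differed, so p-values measure the spread between recipient mice.

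The members and all lists were chosen with earlier results of these data known. All 8 members were tested in each comparison, but not all are named in each. Only some are named, for example, in regulatory cells, in the differences between clusters and in expanded cytotoxic clones. For each member the 2 genes with the most similar profile, and for each of 7 context lists up to 3 genes with the smallest p over all cells, are named, apart from 1 gene of similar profile that is not reported here. Alternatives were DESeq2 1.42.0 size factors and test, totals only, other filters, prior counts, thinning and clone sizes, equal numbers of cells or weights of clusters, no cycling cells, no receptor segments, fits without KO-labelled mice 1 and 2 and with each mouse left out. Added after seeing the data were the variance trend in limma and clone fits in 1 genotype. The test scripts were tested on simulated data.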

Additional observations from a re-analysis of the deposited data

Results flagged for a closer look

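In groups of 4 to 10 mice, 8 of 136 had a highest or lowest mouse far from the nearest other by Dixon's 95% criterion, and chance flags about 1 in 20. S100a6 gave 3 of them. KO-labelled mouse 6 had 1069.9 CPM over all cells, above 776 to 879.6 CPM in the other KO-labelled mice, and 1149 CPM in Th17 cells, above 877 to 946 CPM. The same gene was detected in 54.7% of the cells of WT-labelled mouse 4, above 50.4% to 51.9% in the other WT-labelled mice. KO-labelled mouse 6 also had the largest share of recirculating cells, 40.0%, a cluster with high S100a6. The part of that share in the value over all cells was not tested, and the value in Th17 cells comes from that cluster alone.

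Anxa2 stood at 338 CPM over all cells in WT-labelled mouse 5, above 264 to 287 CPM, and at 193 CPM in Th17 cells of WT-labelled mouse 2, below 241 to 263 CPM. Lgals3 stood at 1061 CPM in unnamed 1 cells of KO-labelled mouse 2, above 875 to 928 CPM, and at 247 CPM in unnamed 3 cells of WT-labelled mouse 3, above 83.8 to 129 CPM. Lgals9 stood at 183 CPM in cycling cells of KO-labelled mouse 3, above 134 to 144 CPM.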

How the results depend on the processing

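Over 19 settings beside leaving out single mice, no called difference changed sign. Without KO-labelled mice 1 and 2, the members called lower were 0 over all cells, 1 in unnamed 3 and 0 in cycling cells, and the genes called were 770 over all cells, 175 in unnamed 1, 203 in unnamed 3, 176 in cycling and 0 in regulatory cells. With each cluster given the same weight, 0 members were called lower over all cells. With totals only, 5 members were higher in unnamed 3 and 5 in cytotoxic cells and 0 lower in cycling cells, where the DESeq2 test called 1 lower. The genes called in all in unnamed 3, cytotoxic and cycling cells with totals only, and in cycling cells in the DESeq2 test, are not printed here. These counts of members are therefore not read as a result about the members. With no filter on low counts, 1 member was higher in regulatory cells (S100a11, adjusted p = 0.0198), with 44 genes called there and 307 in cytotoxic cells, and 6 members (239 genes) were called between expanded and single cytotoxic cells. The variance trend called 1 member higher and 1 lower in the difference for unnamed 3 (29 genes) and 1 lower for cycling cells (38 genes). With no replicate block, 3 members (27 genes) were higher in expanded recirculating clones and 1 (18 genes) in cytotoxic ones. In KO-labelled mice alone, 99 genes were called in recirculating clones, and 11 genes with 0 members higher in cytotoxic ones. In WT-labelled mice alone, 70 genes were called in recirculating clones. The cause of these changes was not tested, apart from the fewer mice in some fits.

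Uncalled values changed sign as follows. Lgals1 over all cells was 0.0031 with totals only, 0.032 without KO-labelled mice 1 and 2 and 0.10 with the same weight, and S100a6 was 0.060 with the same weight. S100a6 in unnamed 1 cells was -0.059 without KO-labelled mice 1 and 2. Anxa2 in cytotoxic cells was -0.050 with no filter and -0.0071 without KO-labelled mice 1 and 2. The S100a10 share of cells without thinning differed by -0.546 percentage points.

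Leaving out 1 mouse at a time kept the members called over all cells at 4 higher and 1 lower. Elsewhere it gave 2 to 4 higher and 0 to 1 lower in unnamed 1 cells (S100a4 was called without KO-labelled mouse 6, adjusted p = 0.0235), 0 to 2 lower in cycling cells, 0 to 12 genes in regulatory cells, and 1 to 3 members in expanded cytotoxic clones. Anxa2 in unnamed 3 cells passed without WT-labelled mouse 6 (0.0426). Uncalled log2 fold changes that crossed 0 were Lgals1 (-0.085 to 0.0045) and S100a10 (-0.014 to 0.069) over all cells, S100a6 in unnamed 1 (-0.032 to 0.13), cycling (-0.038 to 0.10) and regulatory cells (-0.041 to 0.34), Anxa2 in cytotoxic cells (-0.046 to 0.066), Lgals9 (-0.11 to 0.60) and S100a4 (-0.053 to 0.32) in regulatory cells, and S100a11 in expanded cytotoxic clones (-0.0064 to 0.086).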
